A study of Mus musculus with 12 samples.

Results

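The genes described here encode the nuclear-encoded subunits of the 5 complexes of oxidative phosphorylation, measured in the mouse brain at 14 d post-stroke. Members were chosen by symbol alone: the complex I subunit families *Ndufa*, *Ndufb*, *Ndufc*, *Ndufs* and *Ndufv*, the complex II genes *Sdha* to *Sdhd*, the complex III family *Uqcr*, the cytochrome c oxidase families *Cox4* to *Cox8* (complex IV) and the ATP synthase family *Atp5* (complex V) without symbols marked -ps and without the *Ndufaf* assembly factors. Of 88 matching genes among the 49315 in the count table, 80 reached a total of 200 counts over the 12 mice and are the members, with 37 genes in complex I, 4 in complex II, 8 in complex III, 14 in complex IV and 17 in complex V. The member nearest to that minimum was *Cox7a1* with 209 counts, and the nearest gene below it was *Cox4i2*, the lung isoform of cytochrome c oxidase subunit 4, with 195 counts. The other genes below it, *Ndufa11b*, *Ndufb4c*, *Ndufs6b*, *Cox6c2*, *Cox7b2*, *Cox8b* and *Cox8c*, held between 0 and 77 counts, and the first 4 of these are annotated as processed pseudogenes. All 80 members passed the filter on low counts.

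Both groups were male CD45.1 Pep Boy mice, aged 8–12 weeks when irradiated with a shielded head, that received BM cells 8–10 weeks before a 30 min occlusion of the middle cerebral artery. In the *Tet2*-KO group (n = 6) 10% of the transplanted BM cells came from CD45.2 *Tet2*-/- donors, and in the WT group (n = 6) from CD45.2 *Tet2*+/+ donors. The remaining 90% came in both groups from CD45.1 donors with intact *Tet2*, and the cells of the host brain carried intact *Tet2* as well, so that the knockout could be present only in a part of the blood-derived cells. The labels give *Tet2*-KO in the titles and genotype entries of the second group, while their treatment entry names control cells for all mice, and the genotype entry was followed.

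Oxidative phosphorylation makes most of the ATP of a neuron. Complexes I and II pass electrons from NADH and succinate to ubiquinone, complex III passes them on to cytochrome c, complex IV hands them to oxygen, and complex V, the ATP synthase, uses the proton gradient built by complexes I, III and IV. Only a small part of the subunits is encoded in mitochondrial DNA, and the rest, the genes of interest here, are transcribed in the nucleus, where NRF1, the ETS factor GABP and the coactivator PGC-1alpha are the known regulators.

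Counting depth ranged from 12000261 to 15340787 assigned reads in the WT group and from 12625047 to 21049763 in the *Tet2*-KO group, of which the members held between 0.443% and 0.493%. With that depth a member had between 10 (*Cox7a1*) and 11891 (*Atp5b*) counts in a mouse. The brain identity of the tissue was plain from 12 of 12 neuron markers detected, with a summed level of at least 5397 CPM (counts relative to the TMM-scaled library size) in each mouse. Several cell type markers differed between the groups. At an unadjusted p under 0.05 (edgeR quasi-likelihood test), 10 of 12 neuron markers were higher in the *Tet2*-KO group (6 without *Tet2*-KO mouse 1 or without *Tet2*-KO mouse 3) and 9 of 10 markers of activated phagocytes, 6 of 6 tested fibroblast markers and 3 of 6 reactive astrocyte markers were lower, where 10.8% of all tested genes were higher and 12.2% lower. Neutrophil markers gave the only adjusted calls among these lists: 3 of 7 passed the filter, all 3 were lower and 2 passed the adjusted threshold, and their summed level of 5.95 to 15.1 CPM in WT mice did not overlap with 1.69 to 4.79 CPM in *Tet2*-KO mice. Of 5 red blood cell markers, 3 were higher. Summed marker levels ran from 5397 to 7799 CPM (WT) and from 7102 to 9788 CPM (*Tet2*-KO) for neurons, and from 2883 to 6719 CPM (WT) and from 717 to 3578 CPM (*Tet2*-KO) for activated phagocytes, with no marker of either list at 0. WT mouse 2 alone held the WT neuron minimum and phagocyte maximum. The other WT mice had 7276 to 7799 CPM for neurons and 2883 to 4006 CPM for phagocytes. *Tet2*-KO mouse 6 stood apart from all others with 4.74% of its counts on mitochondrially encoded genes, against 2.87% to 3.59%. In these bulk samples fewer cells of a type and less RNA per cell cannot be told apart.

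Between members, levels spanned 139-fold per kilobase of transcript, and ATP synthase and cytochrome c oxidase genes led. *Atp5b*, the catalytic beta subunit of the ATP synthase, stood first with a mean of 284 CPM per kilobase over the 12 mice. It was followed by *Cox8a*, a small subunit of cytochrome c oxidase, with 255 CPM per kilobase and by *Atp5a1*, the alpha subunit that alternates with beta in the F1 head, with 182 CPM per kilobase. The median member had 44.9 CPM per kilobase. *Atp5a1* and *Atp5b* alone held 21.2% of the summed CPM of all members, and complex V held 37.1%. Highest among the genes named for complex I was *Ndufa4* (112 CPM per kilobase), although its protein sits in complex IV. In complex III it was *Uqcr10*, a small subunit (101). In complex II *Sdha*, the flavoprotein that oxidizes succinate, had 66.3 CPM per kilobase, with *Sdhb* close to it at 63.2.

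The lower end held the isoforms known from other tissues. *Cox6a2* and *Cox7a1*, the heart and skeletal muscle isoforms of their subunits, had 6.40 and 3.03 CPM per kilobase, *Cox6b2*, the testis isoform, had 4.43, and *Ndufa4l2*, a paralog of *Ndufa4* known from hypoxic cells, was last with 2.03. In WT mice the log2 ratio of counts to the ubiquitous partner was -3.41 ± 0.29 (SD, n = 6) for *Cox6a2* over *Cox6a1*, -5.05 ± 0.53 for *Cox6b2* over *Cox6b1*, -4.94 ± 0.20 for *Cox7a1* over *Cox7a2* and -5.12 ± 0.43 for *Ndufa4l2* over *Ndufa4*. In every mouse these 4 minor forms stayed below their partners. Of 12 markers of striated muscle, the usual source of *Cox6a2* and *Cox7a1*, 3 passed the filter and 1 had no count in any mouse. Their summed level lay between 23.0 and 27.9 CPM in WT and between 23.7 and 28.6 CPM in *Tet2*-KO mice. The 6 markers of parvalbumin interneurons, also scored, summed to 555 to 661 CPM in WT and 616 to 769 CPM in *Tet2*-KO mice. *Cox6a2* and *Cox7a1* themselves had 4.35 and 1.19 CPM on average. The sums of the muscle and interneuron lists cover different genes and cannot be compared with each other. Which cells of the brain held these isoforms was not tested. Levels per kilobase depend on the transcript chosen, and the 2 members with the longest principal transcripts, *Atp5g1* (4715 bases) and *Ndufb2* (4371 bases), ranked low on this scale.

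**Figure D1:**
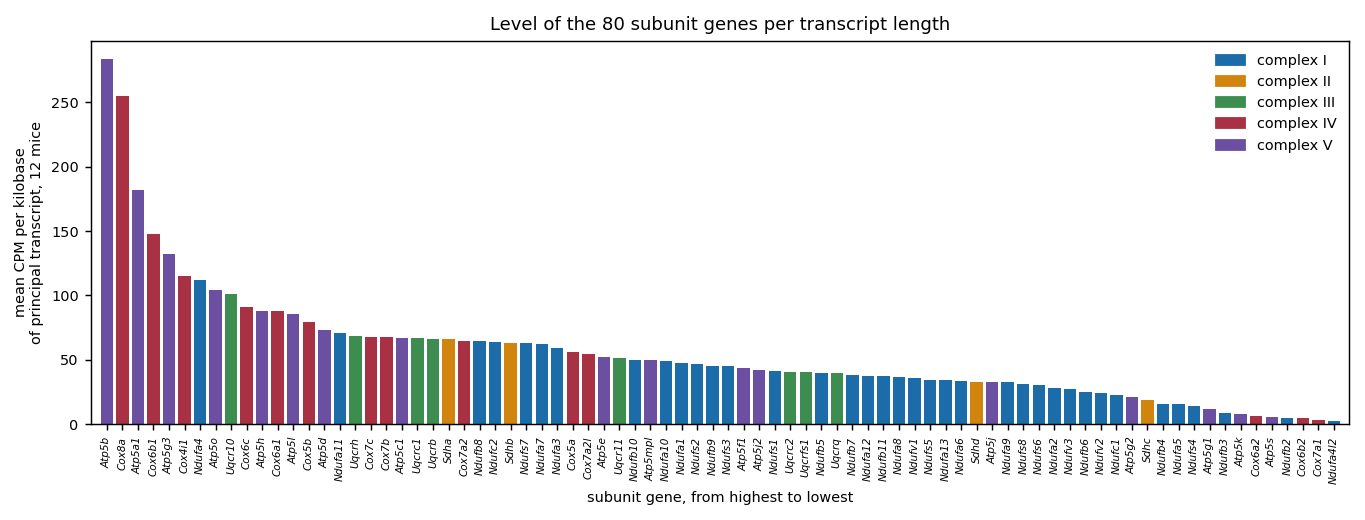
Mean CPM per kilobase of the principal transcript over all 12 mice for each of the 80 members, from highest to lowest, coloured by complex (linear axis from 0). *Atp5b* (284) and *Cox8a* (255) lead, the median is 44.9, and the tissue isoforms lie at the low end.

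Whether *Tet2*-KO BM cells changed these genes was tested with the edgeR quasi-likelihood test over all 20290 genes that passed the filter, with Benjamini-Hochberg adjustment over all of them. No member passed an adjusted p of 0.05, where 0.0246% of all tested genes (5, all lower in *Tet2*-KO) did. At an unadjusted p under 0.05, 2 of 80 members were called, against 23.1% of all tested genes. With a mouse left out, between 1 member (without WT mouse 2, against 15.3% of all genes) and 6 members (without *Tet2*-KO mouse 5, against 28.0%) were called. The DESeq2 Wald test also called 0 members after adjustment and 2 before it, against 2.39% and 13.2% of 37682 genes, and limma-voom called 0 after adjustment and 8 before it, where 2013 of all genes passed its adjusted and 26.4% its unadjusted threshold. The levels of *Tet2*-KO and WT mice overlapped for each of the 80 members, where 1.09% of all tested genes had groups that did not overlap (0.453% with each *Tet2*-KO mouse higher and 0.641% with each lower).

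The differences were also small and tightly measured. The log2 fold change of *Tet2*-KO over WT had a median of 0.03 over the members and 0.01 over all tested genes, and 51 of 80 members lay above 0, against 52.3% of all genes. Without *Tet2*-KO mouse 6 the members' median was 0.04. With 1 mouse left out in turn, the median ran from 0.01 to 0.05 for complex I, from -0.01 to 0.01 for complex II, from -0.0013 to 0.05 for complex III, from 0.02 to 0.07 for complex IV and from 0.02 to 0.05 for complex V. For 66 of the 80 members the 95% interval of the fold change lay inside a 1.2-fold change in either direction, against 31.4% of all tested genes, and for 78 it lay inside a 1.5-fold change, against 73.6%. Mice of the same group differed less in these genes than over all tested genes. The SD of log2 CPM within groups had a median of 0.10 over the members and 0.19 over all genes. The standard error (SE) of the fold change had a median of 0.06 and 0.11. All tested genes include many at lower levels, no genes matched in level were compared, and the part of level in these contrasts was not tested. The 2 members whose interval reached beyond 1.5-fold were *Cox6b2* and *Cox7a1*, both under 3 CPM on average.

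**Figure D2:**
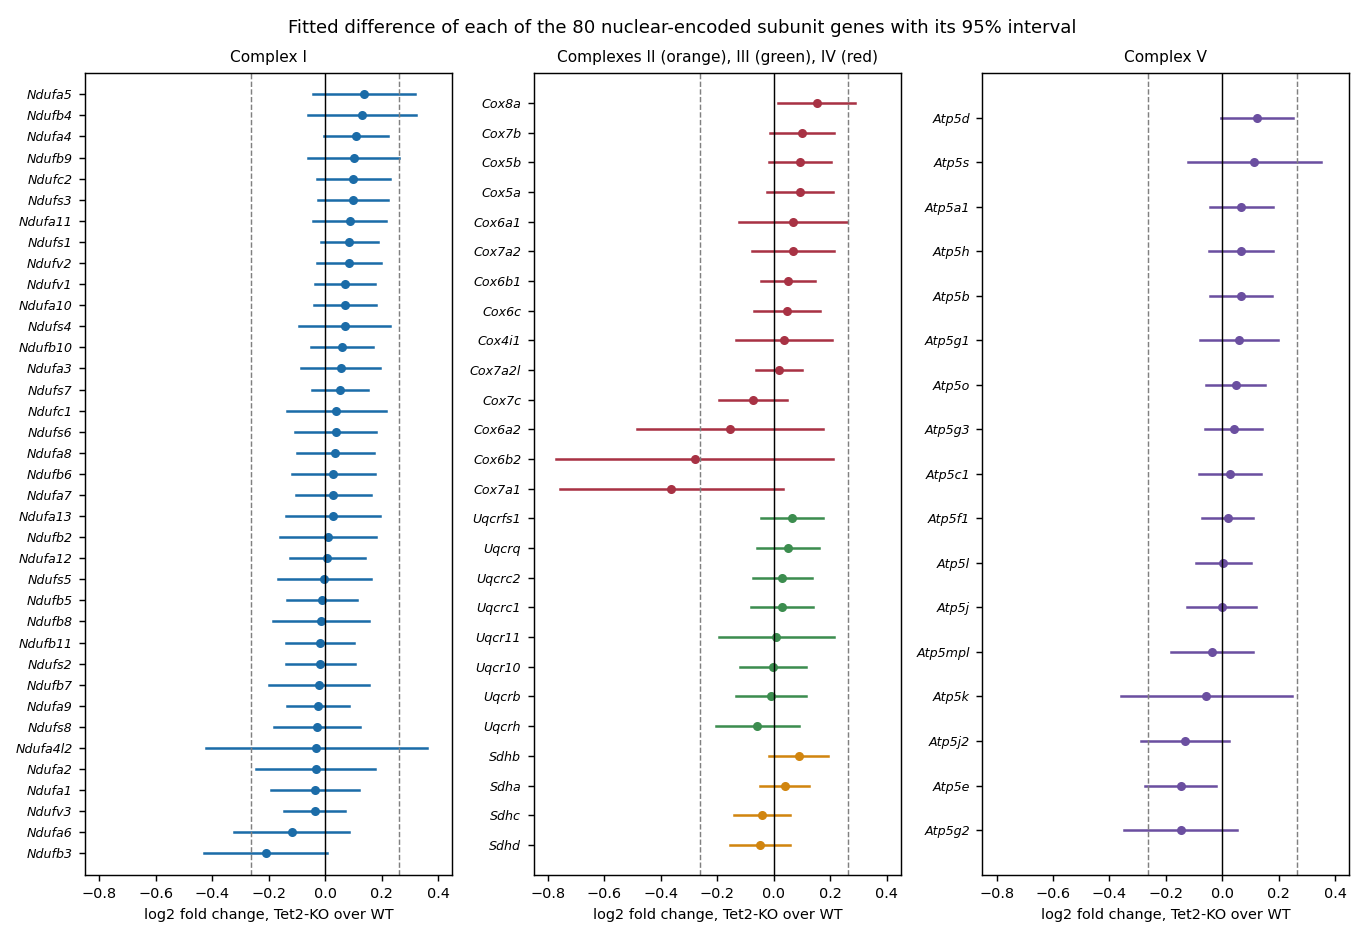
Fitted log2 fold change (point) with its 95% interval (line) for each member, by complex, with dashed lines at a 1.2-fold change either way and n = 6 mice per group. Most intervals cross 0 inside the dashed lines, and the widest belong to *Cox6a2*, *Cox6b2*, *Cox7a1*, *Ndufa4l2* and *Atp5k*, each under 5 CPM on average.

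Complex I, the largest complex, had a median log2 fold change of 0.03 with 23 of 37 genes above 0. Its 7 core subunits among the members, which include the carriers of the flavin and the iron-sulfur centres, had a median of 0.07, and all 7 had intervals inside 1.2-fold. The 28 accessory subunits, which surround the core, had a median of 0.03. *Ndufs1*, a core subunit of the NADH-oxidizing module with several iron-sulfur centres, had 95.7 to 113 CPM (median 107) in WT and 106 to 119 CPM (median 112) in *Tet2*-KO mice. The WT mean was exceeded in all 6 *Tet2*-KO mice and 3 exceeded the WT range, at a log2 fold change of 0.09 ± 0.05 (SE) and an edgeR adjusted p of 0.287.

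*Ndufa4*, named for complex I but found in cytochrome c oxidase, had 59.8 to 69.5 CPM (median 66.6) in WT and 65.5 to 75.4 CPM (median 71.2) in *Tet2*-KO mice. Its groups overlapped in part, with 3 *Tet2*-KO mice above the WT range (log2 fold change 0.11 ± 0.05, edgeR adjusted p = 0.230). *Ndufb3*, an accessory subunit of the membrane arm, had the lowest fold change of complex I. It had 6.22 to 7.54 CPM (median 6.67) in WT and 5.00 to 7.10 CPM (median 5.50) in *Tet2*-KO mice, and 4 of 6 *Tet2*-KO mice lay under the WT range (log2 fold change -0.21 ± 0.10, edgeR adjusted p = 0.232). The paralog *Ndufa4l2* had between 1.44 and 2.94 CPM in WT and between 1.49 and 2.22 CPM in *Tet2*-KO mice. Its gene span overlaps that of *Shmt2* on the other strand. Overlap of exons was not checked and the strand setting of the counting is not given, so its count is uncertain.

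Complex II, the only complex encoded wholly in the nucleus, had a median of 0.00 over its 4 genes, and all 4 intervals lay inside 1.2-fold. The catalytic pair was on the positive side. *Sdha* had 177 to 197 CPM (median 191) in WT and 188 to 201 CPM (median 195) in *Tet2*-KO mice (log2 fold change 0.04 ± 0.04). *Sdhb*, the iron-sulfur subunit, had 63.9 to 73.4 CPM (median 72.1) in WT and 68.0 to 77.4 CPM (median 75.4) in *Tet2*-KO mice. For *Sdhb*, 5 of 6 *Tet2*-KO mice exceeded the WT range, and its log2 fold change was 0.09 ± 0.05 (edgeR adjusted p = 0.292). The membrane anchors *Sdhc* and *Sdhd*, which bind ubiquinone, had -0.04 ± 0.05 and -0.05 ± 0.05 on the log2 scale, and 2 *Tet2*-KO mice lay under the WT range in each.

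Complex III had a median of 0.02 over 8 genes, with a range from -0.06 for *Uqcrh*, the hinge protein that helps dock cytochrome c, to 0.06 for *Uqcrfs1*, the Rieske iron-sulfur protein. *Uqcrfs1* had 52.4 to 55.9 CPM (median 54.2) in WT and 52.2 to 63.0 CPM (median 56.2) in *Tet2*-KO mice, so that its spread was wider in the *Tet2*-KO group (SD 4.39 against 1.17 CPM). *Uqcrh* had 35.8 to 41.4 CPM (median 38.4) in WT and 30.6 to 42.2 CPM (median 37.0) in *Tet2*-KO mice, and its log2 fold change was -0.01 without *Tet2*-KO mouse 6. *Uqcrq*, another small subunit, had a log2 fold change of 0.05 ± 0.05, and *Uqcr10* one of 0.00 ± 0.06. The 8 intervals of this complex all lay inside 1.2-fold.

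Complex IV had the highest median, 0.05 on the log2 scale over 14 genes, with values on both sides of 0. Of its 10 ubiquitous or single-copy subunits, 9 lay above 0, with a median of 0.07, and *Cox7a2l* had 0.02. The 3 tissue isoforms lay below 0, with a median of -0.28. None of these 3 had an interval inside 1.2-fold, and their smallest edgeR adjusted p was 0.254. *Cox8a*, whose product crosses the inner membrane beside the catalytic core, was 1 of the 2 members with an unadjusted p under 0.05. It had 121 to 146 CPM (median 130.4) in WT and 133 to 163 CPM (median 149.9) in *Tet2*-KO mice, as 133 ± 11.0 against 148 ± 11.9 CPM (SD, n = 6 each). The WT mean was exceeded in all 6 *Tet2*-KO mice and 3 exceeded the WT range, while the lower 3 fell within the WT range. The log2 fold change was 0.15 ± 0.06, or 11.1% (95% interval 1.01 to 1.22-fold), with an unadjusted edgeR p of 0.0315 and an adjusted p of 0.179.

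*Cox7b*, another small subunit, had 61.8 to 68.7 CPM (median 64.9) in WT and 62.6 to 76.1 CPM (median 71.3) in *Tet2*-KO mice (log2 fold change 0.10 ± 0.05, edgeR adjusted p = 0.275). Of its *Tet2*-KO mice, 4 exceeded the WT range. The muscle isoform *Cox7a1* had the lowest log2 fold change of all members, -0.36 ± 0.19 (edgeR adjusted p = 0.254), and the widest error apart from *Cox6b2*. It had 0.989 to 1.65 CPM (median 1.36) in WT and 0.769 to 1.30 CPM (median 1.03) in *Tet2*-KO mice, with 6 of 6 *Tet2*-KO mice under the WT mean and 3 under the WT range. *Cox6a2* and *Cox6b2* had -0.15 ± 0.16 and -0.28 ± 0.23. As ratios within a mouse, *Cox7a1* over *Cox7a2* was -4.94 ± 0.20 in WT and -5.36 ± 0.25 in *Tet2*-KO mice (log2, SD, n = 6), and 4 *Tet2*-KO mice lay under the WT range. The ratio of *Cox6a2* to *Cox6a1* was -3.41 ± 0.29 and -3.65 ± 0.37, and that of *Cox6b2* to *Cox6b1* -5.05 ± 0.53 and -5.32 ± 0.36, both with wide overlap.

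Complex V had a median of 0.03 over 17 genes, and its parts lay on both sides of 0. The 5 genes of the F1 head and central stalk had a median of 0.07 with 4 above 0, the 4 of the peripheral stalk, which holds the head in place, 0.03, the 3 of the c-ring, the rotor in the membrane, 0.04, and the 4 small membrane subunits -0.05. *Atp5e*, the epsilon subunit of the central stalk, was the other member with an unadjusted p under 0.05, in the opposite direction to *Cox8a*. It had 21.3 to 24.4 CPM (median 22.8) in WT and 18.8 to 22.0 CPM (median 21.2) in *Tet2*-KO mice, as 22.9 ± 1.25 against 20.7 ± 1.23 CPM (SD, n = 6 each). All 6 *Tet2*-KO mice fell under the WT mean and 4 lay under the WT range. Its log2 fold change was -0.15 ± 0.06 (95% interval 0.827 to 0.985-fold), with an unadjusted edgeR p of 0.0246 and an adjusted p of 0.166.

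*Atp5d*, the delta subunit that lies next to epsilon in the same stalk, leaned the other way. It had 89.7 to 107 CPM (median 100.1) in WT and 96.2 to 117 CPM (median 109) in *Tet2*-KO mice, and 3 *Tet2*-KO mice exceeded the WT range (log2 fold change 0.12 ± 0.06, edgeR adjusted p = 0.228). The catalytic *Atp5b* had 496 to 564 CPM (median 535) in WT and 518 to 594 CPM (median 556) in *Tet2*-KO mice (log2 fold change 0.07 ± 0.05). *Atp5j2*, a small subunit of the membrane part, had 38.9 to 45.3 CPM (median 42.1) in WT and 30.6 to 42.9 CPM (median 39.5) in *Tet2*-KO mice, with 2 *Tet2*-KO mice under the WT range (log2 fold change -0.13 ± 0.07, edgeR adjusted p = 0.287). The lowest value, 30.6 CPM, was that of *Tet2*-KO mouse 6, and without it the log2 fold change was -0.08. *Atp5s*, a coupling factor outside the core enzyme, had 0.11 ± 0.11.

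The c-ring is built from identical mature proteins made by 3 genes, so their shares can be compared within a mouse. *Atp5g3* led with 94.0 ± 3.28 CPM in WT and 96.6 ± 6.27 CPM in *Tet2*-KO mice, *Atp5g1* had 55.0 ± 3.46 and 57.3 ± 5.56 CPM, and *Atp5g2* 16.3 ± 0.70 and 14.7 ± 2.22 CPM (SD, n = 6 each). For *Atp5g2*, 5 *Tet2*-KO mice had 15.0 to 16.2 CPM and *Tet2*-KO mouse 6 had 10.2 CPM. Its log2 fold change of -0.15 ± 0.09 (edgeR adjusted p = 0.363) was -0.06 without that mouse. *Atp5g2* has 2 near-identical copies elsewhere in the transcriptome, so its unique reads are an uncertain measure of it.

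**Figure D3:**
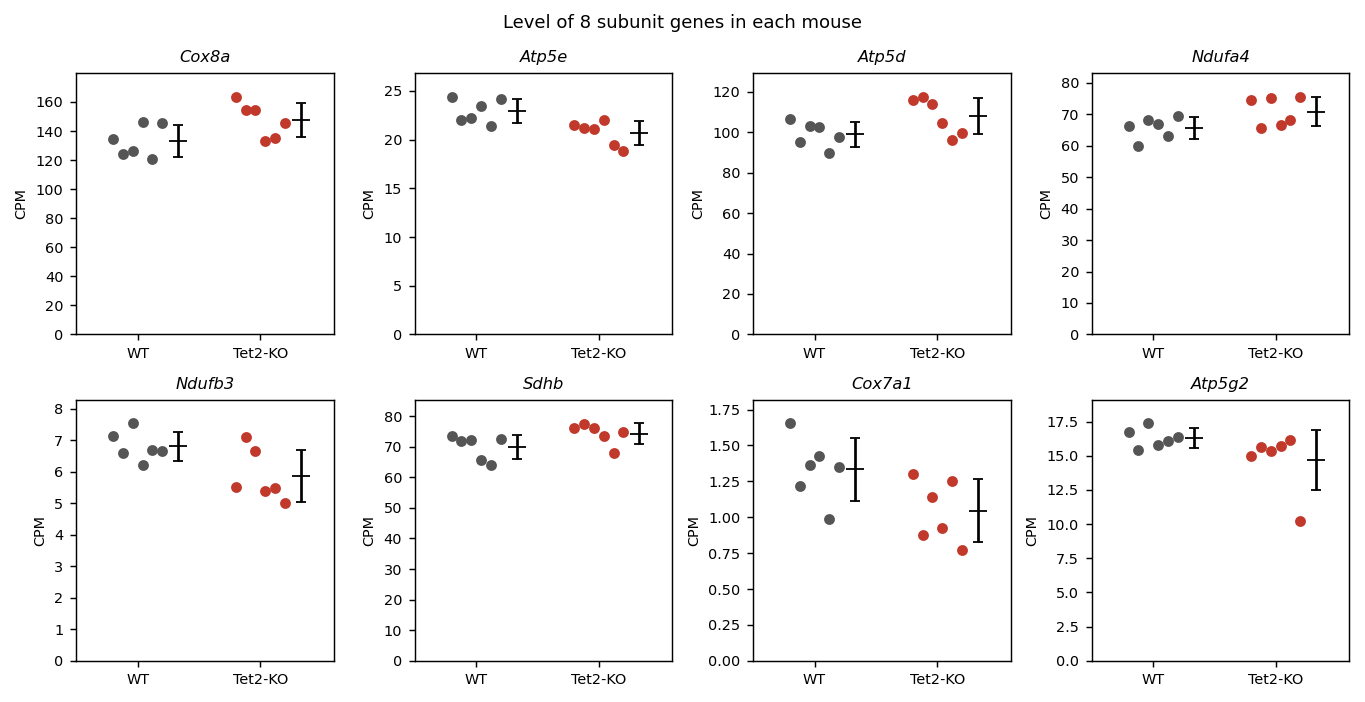
CPM of *Cox8a*, *Atp5e*, *Atp5d*, *Ndufa4*, *Ndufb3*, *Sdhb*, *Cox7a1* and *Atp5g2* in each mouse (points), with mean and SD beside them (n = 6 per group, linear axes from 0). In every panel the groups overlap, and the single low *Tet2*-KO mouse for *Atp5g2* (10.2 CPM) is mouse 6.

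The promoters of *Cox8a*, *Atp5e* and *Sdhb* are shown because the first 2 carried the smallest p-values in opposite directions while sharing a match to the same motif, and the third holds matches to 2 of the motifs searched. They are RefSeq sequences of GRCm38.p6, 300 bases each (250 before to 50 after the start), read 5′ to 3′ along the strand of the gene. Capitals mark matches on either strand to the ETS core CCGGAAG, bound by GABP (CTTCCGG when read on the other strand), or to the NRF1 site GCATGCGC. *Cox8a* (ENSMUSG00000035885, minus strand) spans chr19:7215153-7217616, and its promoter chr19:7217567-7217866 has 2 ETS matches. *Atp5e* (ENSMUSG00000016252, minus strand) spans chr2:174461072-174464105, and its promoter chr2:174464052-174464351 has 1. *Sdhb* (ENSMUSG00000009863, plus strand) spans chr4:140961203-140979193, and its promoter chr4:140961021-140961320 has 1 match to each motif.
Cox8a: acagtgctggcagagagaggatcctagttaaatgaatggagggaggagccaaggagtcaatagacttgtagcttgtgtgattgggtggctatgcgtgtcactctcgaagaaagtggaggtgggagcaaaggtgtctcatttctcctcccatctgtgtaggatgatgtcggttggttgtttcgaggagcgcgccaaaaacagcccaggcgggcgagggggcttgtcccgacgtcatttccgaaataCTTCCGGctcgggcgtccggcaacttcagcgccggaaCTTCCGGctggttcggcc
Atp5e: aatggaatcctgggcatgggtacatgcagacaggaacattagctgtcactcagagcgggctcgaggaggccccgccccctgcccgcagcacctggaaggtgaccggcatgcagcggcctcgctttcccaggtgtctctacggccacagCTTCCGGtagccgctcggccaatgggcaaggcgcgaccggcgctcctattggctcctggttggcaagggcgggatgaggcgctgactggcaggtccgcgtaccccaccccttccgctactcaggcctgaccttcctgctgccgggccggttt
Sdhb: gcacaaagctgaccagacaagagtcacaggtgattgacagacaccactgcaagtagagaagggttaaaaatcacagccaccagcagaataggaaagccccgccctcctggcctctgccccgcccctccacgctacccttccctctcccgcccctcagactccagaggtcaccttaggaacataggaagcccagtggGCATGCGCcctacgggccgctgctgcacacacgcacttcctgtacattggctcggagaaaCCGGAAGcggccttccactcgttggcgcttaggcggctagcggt

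Promoters of 66 of the 80 members were found by symbol. Of these 66, 10 (15.2%) held the NRF1 site, against 3.94% of 17492 protein-coding genes, and 16 (24.2%) held the ETS core, against 12.9%. The YY1 core AAGATGGCG was in 7 (10.6%), against 2.14%, and the TATA box TATAAA in 5 (7.58%), against 14.8%, with both strands searched for each. The ETS and YY1 letters can share their last and first 3 bases, which happened in 0 members. A match is a description of the letters and does not show that a factor binds. The median log2 fold change was 0.03 over the 27 members with at least 1 of the first 3 motifs and 0.04 over the 39 without them. The 16 with the ETS core had 0.01 and the 10 with the NRF1 site 0.02, so that the holders of a motif had medians near that of all members.

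The genes of the factors themselves are given next, and none of them passed the adjusted threshold. *Nrf1* had 22.4 to 26.4 CPM (median 22.6) in WT and 16.2 to 22.0 CPM (median 20.7) in *Tet2*-KO mice. The groups did not overlap, all 6 *Tet2*-KO mice being lower, as for 0.641% of all tested genes, and the log2 fold change was -0.22 ± 0.08 (edgeR adjusted p = 0.133). *Gabpa*, the DNA-binding subunit of GABP, had 24.3 to 26.5 CPM (median 25.4) in WT and 20.4 to 24.6 CPM (median 22.3) in *Tet2*-KO mice, and 5 *Tet2*-KO mice lay under the WT range (log2 fold change -0.17 ± 0.06, adjusted p = 0.126). *Ppargc1a*, which encodes PGC-1alpha, lay on the other side with 63.6 ± 3.87 CPM in WT and 70.7 ± 6.17 CPM in *Tet2*-KO mice, and 4 *Tet2*-KO mice exceeded the WT range (log2 fold change 0.15 ± 0.06, adjusted p = 0.165). *Tfam*, which packages mitochondrial DNA and helps to start its transcription, had 0.09 ± 0.07 (adjusted p = 0.495). *Gabpa* shares its locus with the member *Atp5j*, a peripheral stalk subunit on the other strand, which had a log2 fold change of 0.00. Of 15 genes of mitochondrial transcription and biogenesis, 3 had a negative and 2 a positive fold change with an unadjusted edgeR p under 0.05. Over all tested genes 12.2% were lower and 10.8% higher at that threshold. None of the 15 passed the adjusted threshold.

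Mouse by mouse, the members moved together more clearly than the groups differed. Their summed level was 4605 ± 115 CPM in WT and 4750 ± 252 CPM in *Tet2*-KO mice (SD, n = 6 each), 3.14% higher on average. WT mice ran from 4458 to 4702 CPM. *Tet2*-KO mice 1, 2 and 3 had 5058, 4894 and 4966 CPM, beyond the WT range, while mice 4, 5 and 6 had 4573, 4467 and 4541 CPM, within the WT range. The same 3 mice exceeded the WT range for the sums of complexes I, III, IV and V. For complex III, *Tet2*-KO mice 4, 5 and 6 lay under the WT range (428, 421 and 418 CPM against a WT minimum of 431 CPM). *Tet2*-KO mouse 5 also lay under it for complex I (1301 against 1318 CPM) and complex II (351 against 352 CPM). Without *Atp5a1* and *Atp5b* the sum was 3634 ± 79.1 CPM in WT and 3733 ± 195 CPM in *Tet2*-KO mice, again with mice 1, 2 and 3 beyond the WT range.

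**Figure D4:**
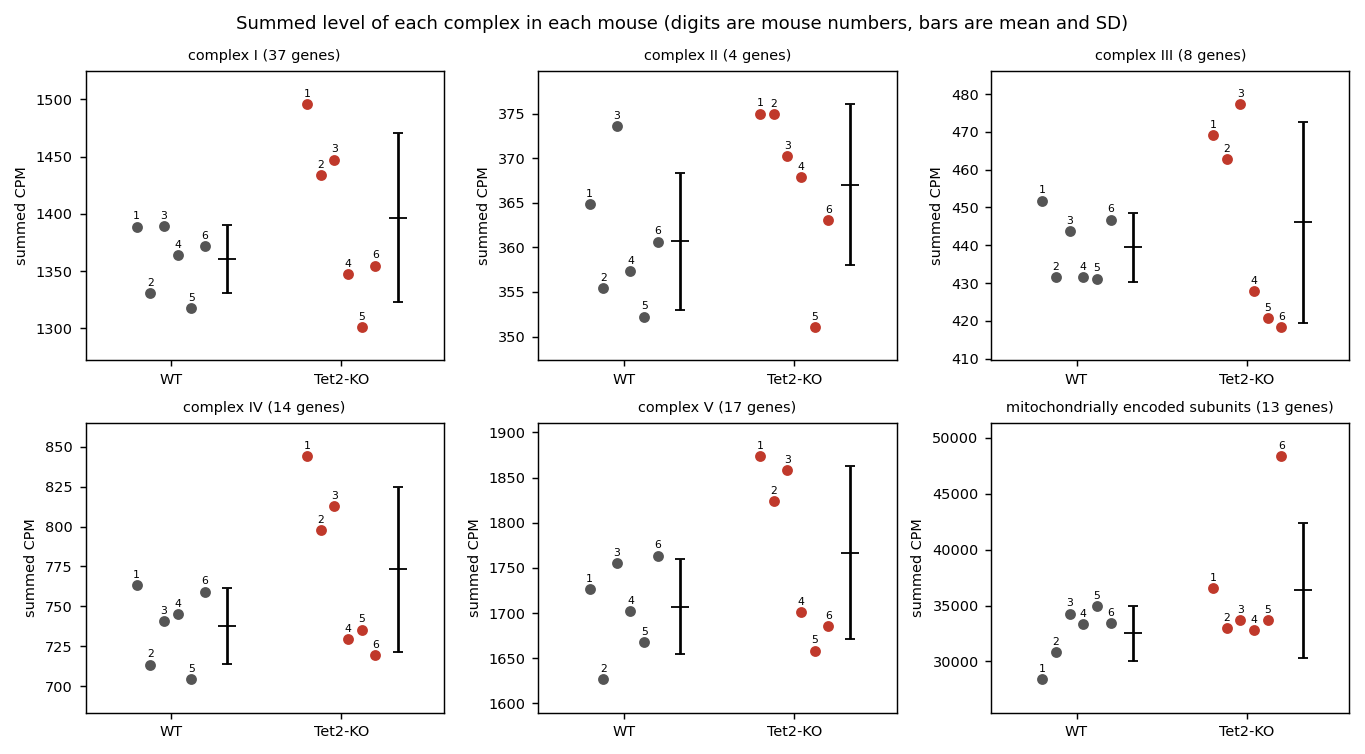
Summed CPM of the members of each complex, and of the 13 mitochondrially encoded subunits, in each mouse (points, numbered by mouse), with mean and SD beside them (n = 6 per group, axes do not start at 0). *Tet2*-KO mice 1, 2 and 3 lie above the WT mice for complexes I, III, IV and V. *Tet2*-KO mice 4, 5 and 6 lie under the WT mice for complex III, and mouse 6 stands alone for the mitochondrially encoded genes (48350 CPM).

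The pattern was broad across genes. As log2 CPM minus the mean of each gene over the 12 mice, the members had a median of 0.12 in *Tet2*-KO mouse 1, with 69 of 80 above their mean, 0.04 in mouse 2 (61 of 80) and 0.09 in mouse 3 (64 of 80). In *Tet2*-KO mice 4, 5 and 6 it was -0.04 (29 of 80), -0.08 (13 of 80) and -0.05 (27 of 80). In WT mice it lay between -0.07 and 0.02, with 18 to 50 members above their mean, and the median over all tested genes was between 0.00 and 0.01 in each mouse.

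Neuron and phagocyte markers moved with the first 3 of these mice. *Tet2*-KO mice 1, 2 and 3 had summed neuron marker levels of 9788, 8850 and 9257 CPM, and summed activated phagocyte levels of 717, 1504 and 1284 CPM. *Tet2*-KO mice 4 and 5, with low member levels, had 7102 and 7443 CPM for neurons and 2470 and 3578 CPM for phagocytes, of which only the 2470 CPM lay outside the WT range. The 7102 CPM lay within that range only through WT mouse 2 (5397 CPM), the next WT mouse having 7276 CPM. *Tet2*-KO mouse 6 had low member levels beside 9350 CPM of neuron and 949 CPM of phagocyte markers. The part of these cell types in the member levels was not tested. The neuron markers had a median log2 fold change of 0.23 where the members had 0.03.

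**Figure D5:**
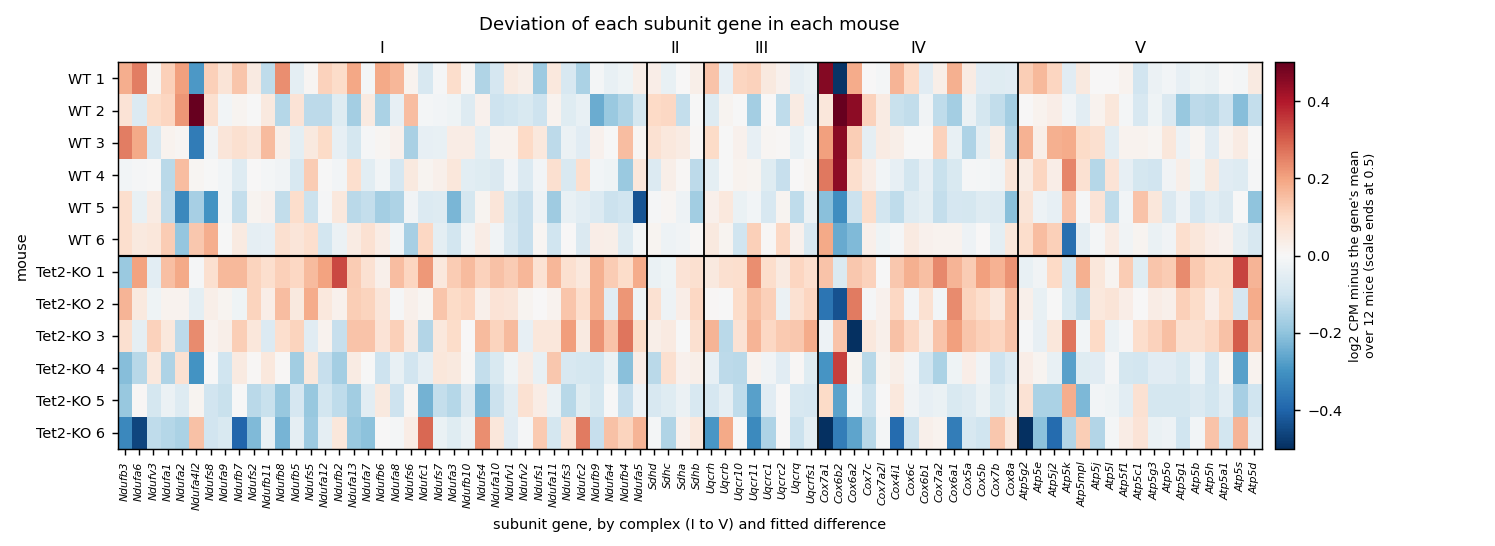
Log2 CPM of each member minus its mean over the 12 mice (colour, red above and blue below the mean, scale ending at 0.5 either way), with mice as rows and members as columns by complex. The rows of *Tet2*-KO mice 1 and 3 are mostly red (69 and 64 of 80 members above their mean) and that of mouse 5 is mostly blue (13 of 80).

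*Tet2*-KO mouse 6 also differed by transcript length. The members with transcripts under 1000 bases (48) had a median deviation of -0.09 in it and those of 1000 bases or more (32) -0.01, a gap of -0.08 where the other 11 mice had gaps between -0.05 and 0.04. For all tested protein-coding genes length was taken as the exonic bases of the gene rather than the principal transcript, so the splits are not alike. Among these genes the 319 with less than 1000 exonic bases had a median of -0.15 in that mouse and the longer ones -0.01. WT mice 1 and 2 differed the other way, with 0.11 and 0.12 for the short genes and 0.01 and 0.03 for the longer ones. Of the short members, 26 of 48 had a log2 fold change above 0, and of the long members 25 of 32. The share of these length differences in the fold changes was not tested.

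The 13 subunits encoded in mitochondrial DNA are made by another polymerase and complete complexes I, III, IV and V. Their summed level was 32531 ± 2463 CPM in WT and 36346 ± 6037 CPM in *Tet2*-KO mice (SD, n = 6 each). *Tet2*-KO mouse 6 had 48350 CPM, and the other 5 had 32767 to 36563 CPM, beside 28395 to 34914 CPM in WT mice. Of the 13 genes 11 had a log2 fold change above 0, with a median of 0.14, which was 0.05 without *Tet2*-KO mouse 6. In edgeR 0 passed an unadjusted p of 0.05, as with DESeq2 and limma-voom. With no filter on low counts 2 did, where 15.3% of all genes passed. Without *Tet2*-KO mouse 4 or without mouse 5, 1 did, where 26.3% and 28.0% of all genes passed. The smallest p belonged to *mt-Nd4*, a core subunit of the membrane arm of complex I (log2 fold change 0.17 ± 0.09, edgeR adjusted p = 0.263, and 0.08 on the log2 scale without *Tet2*-KO mouse 6). These genes were counted unevenly: *mt-Co1* had 11711 CPM on average in WT mice and *mt-Co2* 6.72 CPM, though both encode core subunits of complex IV.

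No gene of the other pathway lists passed the adjusted threshold in edgeR with all mice. With limma-voom, 6 of 18 glycolytic genes, 1 of 29 assembly factors of complexes II to V and 1 of 15 genes of mitochondrial transcription and biogenesis did. Without *Tet2*-KO mouse 5, where 2257 of all genes passed, so did 5 glycolytic genes and 1 of transcription and biogenesis, and with DESeq2 1 glycolytic gene. Of 15 complex I assembly factors none had an unadjusted p under 0.05 (median log2 fold change 0.05), with the smallest p for *Ecsit* (0.11 ± 0.07, edgeR adjusted p = 0.327). Of 29 tested assembly factors of complexes II to V, 2 were higher at an unadjusted p under 0.05, where 10.8% of all tested genes were. They were *Cox16*, which helps build the copper centre of complex IV, at 0.25 ± 0.08 (edgeR adjusted p = 0.123) and *Ttc19*, of complex III, at 0.16 (adjusted p = 0.154). A further list of subunits and carriers had 6 tested genes, among them *Atp5mpl*, which is itself a member, and none was called. *Atpif1*, the inhibitor of the ATP synthase, had the smallest p of this list (0.08 ± 0.06, edgeR adjusted p = 0.439).

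The pathways that feed the chain had medians slightly above that of the members, a difference that was not tested. Of 18 genes of the tricarboxylic acid cycle and pyruvate dehydrogenase, 3 were higher at an unadjusted p under 0.05 and 0 lower, where 10.8% of all tested genes were higher, with a median log2 fold change of 0.07. The count was 1 without WT mouse 1 or 5 or *Tet2*-KO mouse 1, 2 or 3. Among them were *Pdhb*, a subunit of pyruvate dehydrogenase (0.11 ± 0.04, edgeR adjusted p = 0.163), and *Cs*, citrate synthase (0.10, adjusted p = 0.185). Of 18 glycolytic genes 4 were higher and 2 lower, with a median of 0.09, and the higher ones numbered 9 with limma-voom, 7 with upper quartile scaling and 8 without *Tet2*-KO mouse 5. *Pfkm*, the muscle and brain form of phosphofructokinase, had 211 ± 11.6 CPM in WT and 241 ± 20.9 CPM in *Tet2*-KO mice (0.19 ± 0.06, adjusted p = 0.125), and *Hk1*, the main brain hexokinase, *Gpi1* and *Eno2*, the neuronal enolase, had 0.19, 0.15 and 0.19. The lower ones were *Hk2* (-0.70, adjusted p = 0.143) and *Hk3*, the hexokinase of myeloid cells (-1.15, adjusted p = 0.139). *Ttc19*, *Cs*, *Hk1*, *Hk2*, *Hk3*, *Gpi1* and *Eno2* were picked out after their values were seen.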

How the data were processed

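Bulk RNA-sequencing was performed on the brains of 12 mice, 6 transplanted with WT and 6 with *Tet2*-KO BM cells. The authors depleted ribosomal RNA, trimmed paired reads, aligned them to mm10 and used featureCounts on the exonic reads that mapped to 1 place, and they deposited the counts per gene without normalization. The submitters' processing notes name Trimmomatic 0.36, STAR 2.5.2b and Subread 1.5.2. The strand setting of the counting is not given in the sources used here. The 29 members whose gene span overlaps one on the other strand are therefore uncertain, with exons not compared. So are 11 with a near-identical copy (at least 95% identity over 50% of the length, GENCODE M21), since reads that fit several places were not counted.

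From the deposited counts, low genes were removed with filterByExpr, libraries were scaled by TMM, and groups were compared with edgeR 4.0.16 (R 4.3.3, robust quasi-likelihood F test, no covariates), with Benjamini-Hochberg adjustment over 20290 genes and a threshold of 0.05. CPM are TMM-scaled, log2 CPM used a prior count of 2 and log2 ratios of counts a pseudocount of 0.5. SE is that of the log2 fold change. Alternatives were the Wald test of DESeq2 1.42.0, limma-voom 3.58.1 with quality weights, 2 other scalings, 2 other filters, a replicate block and each mouse left out. The edgeR, DESeq2 and limma-voom fits were checked on simulated counts. Total counts per mouse were 12000261 to 21049763, and counting error for members with few counts is part of the model of the test. Each mouse was a separate sample, and libraries of a group differed by more than sampling noise (chi-square per degree of freedom 2.00 to 27.5). Genes are named where they had, within a complex, 1 of the 3 smallest p-values or the highest or lowest level per kilobase, or belonged to an isoform pair, with the smallest p in each other list and 4 regulators. The members and lists were chosen with earlier results of these data known. Behaviour, staining and qRT-PCR were not analysed here. One gene of the other lists is not reported here by name.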

Additional observations from a re-analysis of the deposited data

Results flagged for a closer look

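Among 90 sets of 6 values of one group, 4 had a single mouse far from the others by Dixon's criterion at 95%, where chance marks about 1 in 20 sets. Of these, 3 were in *Tet2*-KO mouse 6: *Atp5g2* at 10.2 CPM (the other 5 *Tet2*-KO mice 15.0 to 16.2 CPM), the summed level of the mitochondrially encoded subunits at 48350 CPM (others 32767 to 36563 CPM), and the share of all counts on mitochondrially encoded genes at 4.74% (others 3.25 to 3.59%). The sum and the share measure nearly the same counts. The fourth was *Tet2*-KO mouse 3, whose log2 ratio of *Cox6a2* to *Cox6a1* was -4.40 (others -3.56 to -3.45).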

How the results depend on the processing

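No member passed the adjusted threshold under any of the 7 other settings or with any mouse left out. The counts of members at an unadjusted p under 0.05, 1 lower and 1 higher, became 2 lower and 6 higher with limma-voom, 0 and 8 with upper quartile scaling, and 0 and 2 with no filter on low counts, where 26.4%, 25.3% and 15.3% of all genes were called. With each mouse left out in turn they ranged from 0 to 3 lower and from 0 to 6 higher, where 15.3% to 28.0% of all genes were called. They were 0 and 6 without *Tet2*-KO mouse 5 (28.0% of all genes), and 0 and 4 without *Tet2*-KO mouse 6 (17.9%). Without *Tet2*-KO mouse 1 they were 3 and 0 (17.7%). Over all genes the adjusted calls, 5 here, were 2257 without *Tet2*-KO mouse 5, 902 with DESeq2, 2013 with limma-voom and 0 without 8 of the 12 mice in turn. Leaving out any of the 12 mice changed at least 1 of these counts of members by over 1.5 times.

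Upper quartile scaling moved the median over all genes from 0.01 to 0.04 (log2) and that of the members from 0.03 to 0.06. Leaving out 1 mouse gave member medians from 0.02 to 0.04. *Uqcr10*, at 0.00, turned positive with limma-voom (0.0191), upper quartile scaling (0.0322) and no filter (0.00126), and *Ndufa4l2* with limma-voom (0.0983) and upper quartile scaling (0.0039). With a mouse left out these ranged from -0.0209 to 0.0218 and from -0.102 to 0.134. The causes were not tested.

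Same-numbered mice of the groups share only a number: their deviations correlated between -0.169 and 0.229 over 6 pairs, and 1 of 6 WT mice correlated best with its own number. With the replicate block, 1 member was lower and 3 were higher at an unadjusted p under 0.05, where 21.3% of all tested genes were called.

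Members under 3 CPM (*Cox7a1*, *Cox6b2*, *Ndufa4l2*, *Atp5k*) had intervals too wide to show a difference of 1.2-fold. The comparison covers brain tissue at 1 time after stroke, and mice without stroke, protein and respiration were not analysed here.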
